A study of Mus musculus with 4 samples.

Results

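The genes described here are those whose annotated messenger RNA carries a very long 3' untranslated region (3' UTR), the stretch after the stop codon that is transcribed but not translated. They were taken from the gene annotation deposited with a CUT&Tag study, an assay in which an antibody directs a transposase to chromatin. The antibody was against RNA polymerase I (Pol I) and the cells were the mouse embryonic stem cell line C64. The study's libraries fall into 2 groups, auxin-treated cells (2 libraries, 500 nM for 6 h) and untreated control cells (2 libraries). The labels name no degron-tagged protein for the auxin to act on and do not say whether replicates were separate cultures. No value per library was analysed here, so auxin and control cells are not compared, and depth and replicate error do not apply to the fixed coordinates below.

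Members were chosen by length alone. For each gene symbol on the 21 assembled mm10 chromosomes, every transcript row with a coding part was measured, its 3' UTR being the exonic bases downstream of the coding part, and the longest 3' UTR stood for the symbol. Of 20992 coding symbols, 517 had a 3' UTR of 5000 bases or more, which is 2.46% of them. A 3' UTR of any length was annotated for 19535 symbols, and these serve for comparison. The labelled property is fixed by the rule, so lengths are given as a description and no test was run on them.

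A 3' UTR is where much of the fate of a messenger RNA is set. It holds the binding sites of microRNAs and of RNA-binding proteins, which act on stability, translation and placement in the cell, and it ends at a cleavage and polyadenylation site. Use of a nearer or farther site gives variants with a short or long 3' UTR from the same gene. Long 3' UTRs are best known from neurons, whereas short variants are known from dividing cells, stem cells among them. The annotation does not say which variant the C64 cells use.

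Precursors of microRNAs lay inside a few of these 3' UTRs, and their sequences are shown because they are the small RNAs whose gene is itself part of a long 3' UTR. Of 1005 hairpins with a RefSeq sequence (assembly GRCm38.p6), 5 lay entirely within the longest 3' UTR of a member, each in a different gene and all 5 on the gene's own strand. Over all coding symbols 26 hairpins lay within a longest 3' UTR, 19 of them on the same strand. The mature microRNAs read 5' to 3' as follows, with the seed (bases 2 to 8) in capitals.
mmu-miR-331-3p: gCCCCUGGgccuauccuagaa
mmu-miR-331-5p: cUAGGUAUggucccagggaucc
mmu-miR-5113: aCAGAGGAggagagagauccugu
mmu-miR-7670-5p: aUUCAGAUgggcagauugggaa
mmu-miR-7670-3p: uUCCCUUUcugaauaucuguaga
mmu-miR-8091: aGGAGUGAgugguaagcuggug
mmu-miR-3063-5p: uGGAGAUCagguuugcacacu
mmu-miR-3063-3p: uGAGGAAUccugaucucucgcc

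No seed was shared among these 8 sequences. Coordinates of the hairpins are those of GRCm38.p6. Mir331 (chromosome 10, 93963768 to 93963863, minus strand) lay 9658 to 9753 bases after the stop of Vezt, the gene of the adherens junction protein vezatin. That stop belongs to the row with the longest 3' UTR, of 11999 bases behind 1920 coding bases. The row with the longest coding part, 2355 bases, has another stop and a 3' UTR of 8671 bases. Mir5113 (chromosome 15, 80940039 to 80940120, plus strand) lay 10563 to 10644 bases after the stop of Tnrc6b. Tnrc6b encodes a GW182 protein, the partner through which Argonaute proteins silence their targets, so a gene of the microRNA machinery held a microRNA hairpin in its own 3' UTR of 11610 bases. Mir7670 (chromosome 6, 38507325 to 38507393, plus strand) lay near the middle of the 10476-base 3' UTR of Ubn2, from base 5038 to base 5106. Mir8091 (chromosome 19, 41588651 to 41588789, plus strand) lay 2115 to 2253 bases into that of the ligand-dependent corepressor Lcor, which had 9625 bases. Mir3063 (chromosome 11, 95963292 to 95963383, minus strand) was the nearest to a stop, 117 to 208 bases downstream in Igf2bp1, an RNA-binding protein gene with a 3' UTR of 6337 bases. The gene rows of the annotation also placed Mir8108 in the 3' UTR of Tacc1 and Mir7219 in that of Fam210a.

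**Figure D1:**
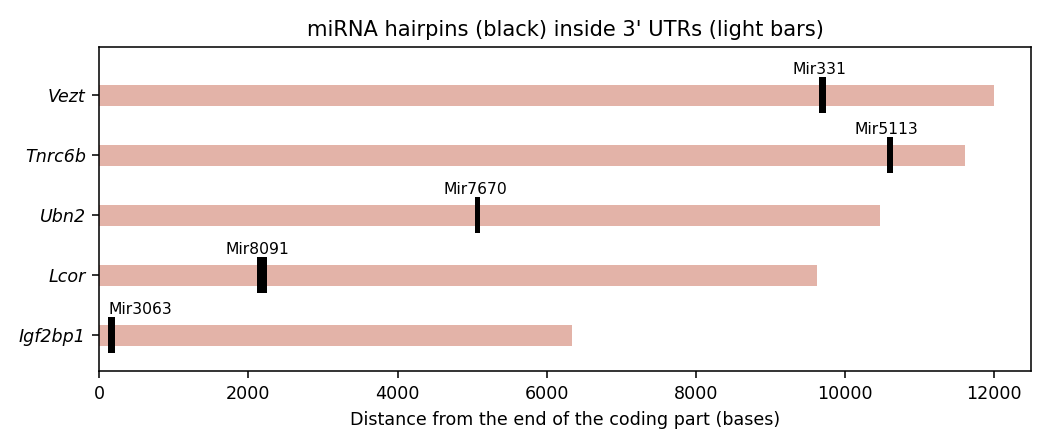
Position of 5 microRNA hairpins (black) along the 3' UTR of the gene that holds them (light bars), as distance in bases from the end of the coding part. Mir3063 sits 117 bases after the stop of Igf2bp1, whereas Mir5113 begins at base 10563 of the 11610-base 3' UTR of Tnrc6b.

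The 517 lengths ran from 5005 to 18877 bases, with a median of 5989 and quartiles of 5395 and 7137. Over all 19535 symbols with a 3' UTR the median was 812 bases. Most members lay close to the limit, as 258 reached 6000 bases, 77 reached 8000, 28 reached 10000 and 4 reached 15000. Together the members made up 13.5% of the summed length of all longest 3' UTRs, with 3415343 of 25263607 bases. The limit does not fall in a gap of the distribution. Just inside it were Elovl6, a fatty acid elongase, and Prtg (5005 bases each), the splicing regulator gene Ptbp3 (5015), Nyap2 (5023) and Trim66 (5026). Just outside it were Pyurf and Ralgps2 (4998 each), the transcription factor gene Bcl11b and Xrn1, a cytoplasmic RNA exonuclease (4997 each), and the phosphodiesterase gene Pde10a (4992).

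**Figure D2:**
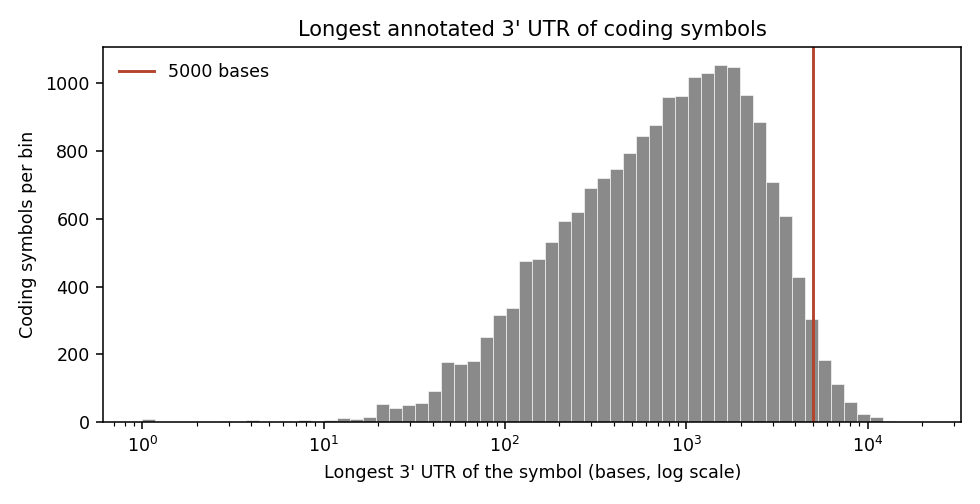
Number of coding symbols by the length of their longest 3' UTR (bases, log scale), for the 19535 symbols that have one. The line marks 5000 bases, and the 517 members lie in the falling right flank of a single broad peak.

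The longest 3' UTR of the annotation belonged to Grin2b, which encodes the GluN2B subunit of the NMDA glutamate receptor. It covered 18877 bases in a single block (mm10, chromosome 6, 135713221 to 135732097, minus strand) and made up 78.8% of the exonic bases of the transcript. Lrrc7, the gene of the postsynaptic scaffold protein densin, followed with 17407 bases in 2 blocks (chromosome 3, 158067186 to 158104473, minus strand). Kctd16, an auxiliary subunit of GABA-B receptors, had 16155 bases (chromosome 18, 40531104 to 40547258, plus strand), 12.6 times its coding part of 1284 bases. Slc8a1, the plasma membrane sodium-calcium exchanger, had 15586 bases (chromosome 17, 81373105 to 81388690, minus strand).

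The next 11 came from several kinds of gene. Fbxl17, an F-box protein that selects substrates for ubiquitin ligation, had 14322 bases. Strbp, an RNA-binding protein of spermatids and brain, had 14162 and Lpp, a LIM protein of focal adhesions, had 13257. Gm33989, a predicted gene, had 13157 bases in all 8 of its coding rows. Genes of neuronal signalling were Gabrb1 (GABA-A receptor, 12763 bases), Kcnb2 (Kv2 potassium channel, 12121) and Nlgn1 (neuroligin, a synaptic adhesion protein, 11830). Vezt (11999), the transcription factor gene Onecut2 (11857), the zinc finger gene Zfp704 (11777) and Tnrc6b (11610) completed the 15 longest. Their coding parts ranged from 1284 bases in Kctd16 to 5433 bases in Tnrc6b, so the order by 3' UTR was not the order by coding length.

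**Figure D3:**
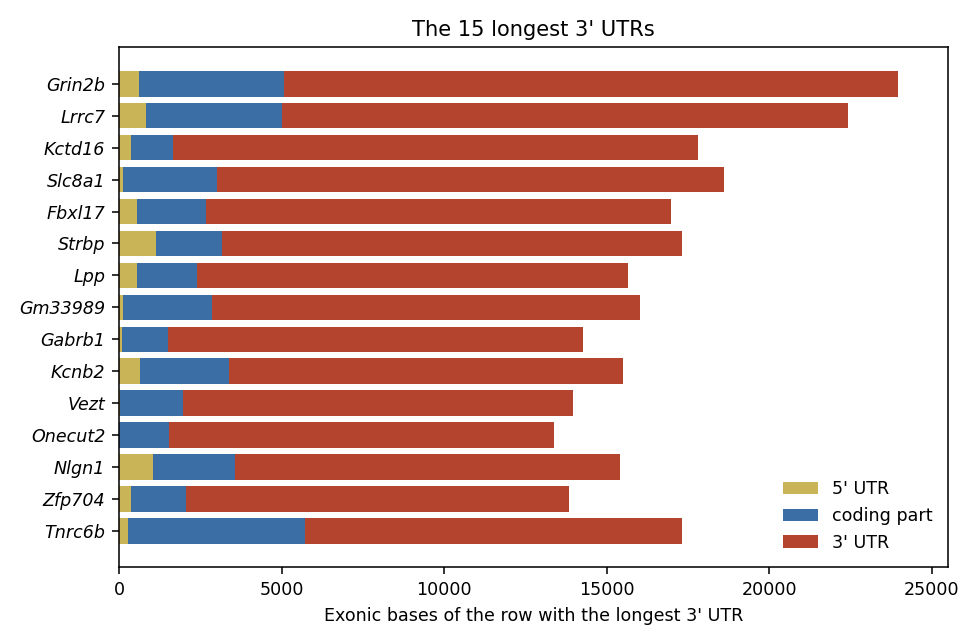
Exonic bases of the transcript row with the longest 3' UTR, split into 5' UTR, coding part and 3' UTR, for the 15 members with the longest 3' UTR. Grin2b is at the top with 18877 bases of 3' UTR, and in each of the 15 the 3' UTR takes up at least 67.0% of the exonic bases.

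Long 3' UTRs were mostly a single exon block. In 494 of 517 members (95.6%) the 3' UTR touched 1 block only, close to the 94.6% seen over all symbols with a 3' UTR. The other 23 members (4.45%) had 2 blocks and none had more, against 1025 symbols with 2 blocks (5.25%) and 31 with 3 or more (0.159%) over all symbols with a 3' UTR. In these 23 the stop lay 1 to 67 bases before the last exon junction, with a median of 30, so nearly all of the 3' UTR was in the last exon. Lrrc7 had 46 bases before the junction and 17361 after it, and the diacylglycerol kinase gene Dgkh had 46 and 10808. The blocks were 6 and 8360 bases in Nfat5, the transcription factor of osmotic stress, 39 and 7593 in the kainate receptor gene Grik2, and 21 and 7519 in Cmah, a sialic acid hydroxylase. Hrk, which encodes a pro-apoptotic BH3-only protein, was the single member (0.193%) whose stop lay more than 50 bases before the last junction, at 67 bases, compared with 71 of 19535 symbols (0.363%). A stop that far upstream is the textbook condition for nonsense-mediated decay, and no transcript was tested for it here.

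Several transcripts were annotated for many members. Of 517 members, 294 (56.9%) had 2 or more coding rows, against 8081 of 19535 symbols (41.4%). A symbol with more rows has more chances to meet a rule that takes the longest, so this difference was not tested. In 427 members every coding row reached 5000 bases, 223 of them having only the 1 row. Among the 294 members with several rows, 121 had more than 1 length of 3' UTR (41.2%), against 31.7% of all such symbols with a 3' UTR.

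Short variants of the same gene were annotated for 70 members, whose shortest 3' UTR was at most 50% as long as the longest. That is 23.8% of the 294 members with several coding rows, against 12.8% of all such symbols with a 3' UTR. The rule favours a large longest value, and with it a large ratio, so the shares are given as a description. In 53 of the 70 (75.7%) the short variant had another stop and another end, as when a different last exon is used, close to the 72.8% over all symbols with such a variant. In 8 it had another stop but the same end, in 7 the same stop and another end, and in 2 the same stop and the same end.

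The short forms were often far shorter. Igsf9b had a 3' UTR of 11571 bases in 1 coding row and 463 bases in its shortest, and Synj2bp, a mitochondrial outer membrane protein, had 9832 and 363. The glutamate transporter gene Slc1a2 had 9250 and 412 bases, and the prolactin receptor gene Prlr had 7753 and 53. Bcl2, the founding anti-apoptotic gene, had 5088 and 116. The RNA-binding protein gene Msi2 had 5310 bases, and its shortest coding row had 126. These 6 genes were picked after their values were seen, and each of the short forms had another stop than the long one.

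Some variants kept the stop and differed in the 3' UTR behind it. The coding part could differ as well, as in Creb5, with 1506 coding bases in the long form and 1074 in the short one. Such a variant at most 50% as long was annotated for 10 members, or 3.4% of those with several coding rows, against 1.72% of all such symbols with a 3' UTR. The largest difference was in Dcaf17, a substrate receptor of a ubiquitin ligase, with 5929 bases in the long form and 132 bases, split over 2 blocks, in the short one. Mib1, a ubiquitin ligase that acts on Notch ligands, had 6453 and 791 bases. Both forms of Mib1 ended at the same base, and the short one had 2 blocks, so these forms differed by splicing within the 3' UTR. Celf1, an RNA-binding protein gene, had 6044 and 2969 bases, and its forms also ended at the same base, with 2 blocks in each.

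In the other 8 of the 10 the short form ended at another base. Besides Dcaf17 these included the AP-2 factor gene Tfap2d (7770 and 2409 bases), Ssbp2, a single-stranded DNA binding protein (5480 and 550), and Pfkfb2, an enzyme that regulates glycolysis (5630 and 868). Ssr1 of the translocon-associated complex had 8338 and 3749 bases, the transcription factor gene Creb5 6277 and 1745, and the guanine nucleotide exchange factor gene Dock9 5138 and 1464. A further 9 members had a same-stop variant that was shorter by less than this, among them Agfg1, Cadm2, D430041D05Rik and Prkaa2 with differences of 1 to 6 bases.

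**Figure D4:**
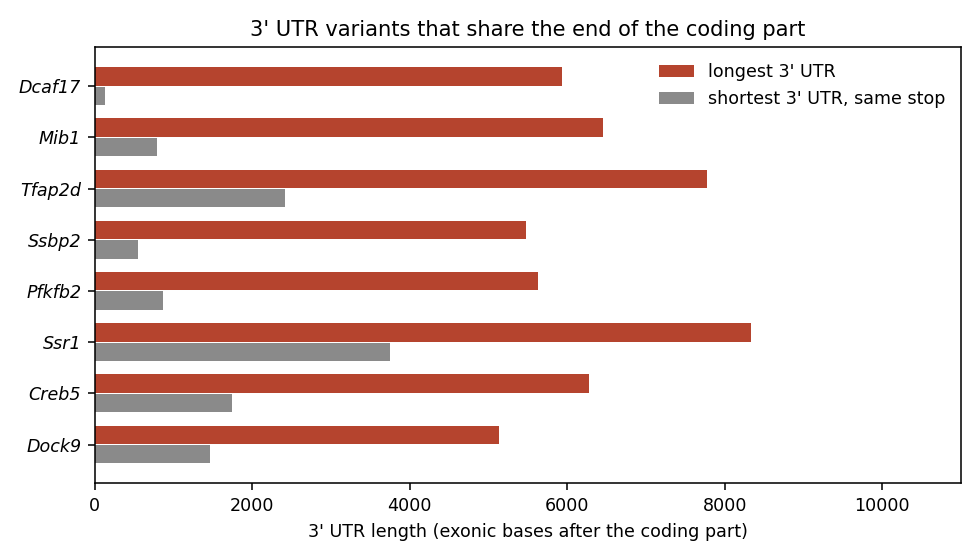
Length of the longest 3' UTR and of the shortest 3' UTR with the same end of the coding part, in exonic bases, for the 8 members with the largest difference. Dcaf17 is at the top (5929 and 132 bases) and Dock9 at the bottom (5138 and 1464 bases).

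Coding parts had a higher median in members than over all symbols with a 3' UTR, by a smaller factor than the 3' UTRs. It was 1770 bases (quartiles 1230 and 2727) in members and 1257 bases (759 and 2020.5) over all symbols with a 3' UTR. Coding parts under 500 bases were found in 14 members (2.71%) and in 11.4% of all symbols, and those of 5000 bases or more in 28 members (5.42%) and in 3.65%. Within the members, length of 3' UTR and of coding part were weakly related across genes, with a Spearman rho of 0.11 over 517 genes, against 0.24 over all 19535 symbols with a 3' UTR. The members span only the range of lengths that the rule leaves, and genes are not independent replicates. All 517 coding lengths were multiples of 3.

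The longest coding parts were those of Kalrn, a guanine nucleotide exchange factor (8949 bases), Rif1, a regulator of replication timing (7281), the calcium channel gene Cacna1e (6822), the zinc finger gene Zfp318 (6714) and the calcium channel gene Cacna1c (6669). In Kalrn the 3' UTR of 6443 bases was still 41.7% of the exonic bases, the lowest share of any member. The shortest coding parts were those of Tmem167 (219 bases), D430019H16Rik (252), Hrk (279), the chemokine gene Cxcl12 (360) and 1700025G04Rik (366). Tmem167 encodes a small membrane protein, and its 3' UTR of 10476 bases was 47.8 times its coding part and 96.9% of the exonic bases, the highest share of any member. The next highest shares were 94.5% in Synj2bp, 94.4% in Hrk, 92.0% in Cbx5, which encodes heterochromatin protein HP1 alpha, and 91.8% in Ube2v2, a ubiquitin-conjugating enzyme variant.

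The 3' UTR was longer than the coding part in 505 of 517 members (97.7%), against 34.8% of all symbols with a 3' UTR. It was at least 10 times as long in 28 members (5.42%), against 0.486% of all, and both differences follow in part from the rule. Its median share of the exonic bases was 75.7% in members and 34.6% over all symbols with a 3' UTR, a difference that follows from the rule. In 50 members (9.67%) another row of the same symbol had a longer coding part than the row with the longest 3' UTR, against 7.13% over all. Only symbols with 2 or more coding rows can meet this, and members more often had them. Among such symbols the counts were close in proportion, 50 of 294 members and 1392 of 8081 over all. In 7 of the 50 (1.35% of members, against 0.901% over all) the coding part was at most 50% of that in the other row. Bhlhe41, a circadian transcription factor, shows this, with a 3' UTR of 5575 bases behind a coding part of 396 bases, and 4609 bases behind 1233 in its other row. Nsd2, a histone methyltransferase gene, had 5814 bases behind 1947 coding bases, and 2789 bases behind its longest coding part of 4101. Both genes reach the limit only through the row with the shorter reading frame.

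Several measures that did not set the choice had higher medians in members, although the span and exonic length include the 3' UTR itself. The median gene span was 79101 bases in members and 18008 over all symbols with a 3' UTR, the median number of exons 11 and 7, and the median 5' UTR 237 and 141 bases. Spans of 500000 bases or more were found in 27 members (5.22%) and in 0.927% of all. Lsamp, a cell adhesion gene of the limbic system, had the longest span with 2197316 bases and a 3' UTR of 7437. A single exon held the whole transcript in 8 members (1.55%), against 5.11% of all symbols, among them Sox11 (6953 bases), Purb (7313) and Amer2 (7928). No test was run on these differences because genes of a family and neighbours in the genome are not independent.

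The room downstream was measured too. The median distance from the end of the row to the next row of another symbol on either strand, set to 0 where another row covers the end, was 21469 bases in members and 9635.5 bases over all symbols with a 3' UTR. It was under 1000 bases in 62 members (12.0%) and in 3702 of the 19535 symbols.

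The 3' UTR shared exonic bases with another symbol in 41 members (7.93%), close to the 7.38% over all symbols with a 3' UTR although members have more bases to share. By bases, 1.29% of the members' 3' UTR sequence was shared, against 2.51% over all. The other symbol was on the opposite strand in 33 members (6.38%, against 6.44% over all) and on the same strand in 9 (1.74%, against 0.993%). Most of the 9 were the microRNA hairpins named above, of 54 to 139 bases. The other same-strand symbols were Gm20517 in Usp49 and Atp6v0a4 in D630045J12Rik. Nr2c2, a nuclear receptor gene, and Mrps25, a mitochondrial ribosomal protein gene, were both members and converged on chromosome 6, sharing 3547 bases. That was 65.4% of the 5425-base 3' UTR of Nr2c2 and 64.4% of the 5510-base 3' UTR of Mrps25. Syn3, a synapsin gene, shared 3128 of 6786 bases with Fbxo7 on the opposite strand, and Elp4 shared 1091 of 5410 bases with Pax6, the eye development factor. Ube3a, the ubiquitin ligase gene silenced on the paternal allele in neurons, shared 100 bases with Snhg14, which holds its antisense transcript. On the same strand, Usp49 shared 5110 of 5867 bases with Gm20517, so signal there cannot be assigned to either symbol from the coordinates.

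By function, members were counted in 20 gene lists, where 78 of 2393 distinct symbols were members (3.26%), and set beside the 2.46% of all coding symbols. The pooled share is lowered by the 1103 olfactory receptor genes, whose median 3' UTR was 0 bases and which held no member. No set test was run, so the shares are counts and are not called particular to a list. The RNA-binding regulators, many of them proteins that act on 3' UTRs, held 9 members among 42 symbols (21.4%). They were Celf2 (7392 bases), the roquin gene Rc3h1 (7179), the neuronal splicing regulator gene Nova2 (6701), Igf2bp1 (6337), Celf1 (6044), Rc3h2 (5331), Msi2 (5310), the quaking gene Qk (5252) and Rbfox2 (5172). Elavl1, which encodes HuR, a protein that stabilizes messages with AU-rich elements, was outside at 4818 bases, as were Syncrip (4890) and Lin28b, a repressor of let-7 processing (4446). Of the small RNA silencing list, 2 of 13 were members (15.4%), Tnrc6b and the slicer gene Ago2 (5283). Ago3 (4796), Ago1 (4491), Dicer1, the enzyme that cuts precursors into microRNAs (3851), and Drosha (169) were not. None of the 21 cleavage and polyadenylation genes was a member, the longest being Cpsf6 with 4838 bases. A list this short can hold none at the 2.46% of all coding symbols without standing out.

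Genes of neuronal signalling gave the next lists. Of 30 voltage-gated potassium channel genes 7 were members (23.3%), among them Kcnb2, Kcna2 (9401 bases), Kcnq3 (8797), Kcna1 (5405) and Kcnc1 (5042). Of 26 glutamate receptor genes 5 were members (19.2%), with Grin2a at 9926 bases, Grik2 at 7632, the AMPA receptor gene Gria2 at 7096 and Grik3 at 6082 after Grin2b. The family was uneven, as Grin1, the obligatory NMDA receptor subunit, had 1191 bases and Grin2c and Grin2d had 402 and 297. Of 19 GABA-A receptor genes 3 were members (15.8%), Gabrb1, Gabrg3 (7950 bases) and Gabrb2 (5700). Of 19 voltage-gated sodium and calcium channel genes 3 were members (15.8%), Cacna1c, Cacna1e (5874 bases) and the sodium channel gene Scn8a (5250). Of 57 synaptic adhesion and axon guidance genes 7 were members (12.3%), with Nlgn1, the netrin receptor genes Unc5c (6352) and Unc5d (6051), and Cntn2 (6109) the longest. The separate list of clustered protocadherins, described below, held none.

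Signalling and chromatin genes followed. Of 24 TGF-beta, BMP and Wnt receptors 4 were members (16.7%), the Wnt receptor gene Fzd3 (10278 bases), the activin receptor genes Acvr2b (8687) and Acvr1c (7465), and the BMP receptor gene Bmpr2 (7596). Of 48 chromatin regulators 4 were members (8.33%), among them the methylcytosine oxidase genes Tet1 (7962) and Tet3 (5669), and the DNA methyltransferase gene Dnmt3a (6696). Hecw2 (6348) and Ube3a (5907) were members among 26 HECT ubiquitin ligases (7.69%), and Sox11 and Sox6 (6046) among 19 Sox factors (10.5%). Of the solute carriers 18 of 364 were members (4.95%), led by Slc8a1, Slc1a2, the monocarboxylate carrier gene Slc16a7 (8742) and Slc4a8. Of the Zfp zinc finger genes 11 of 365 were members (3.01%), led by Zfp704, Zfp871 (8856), Zfp26 and Zfp318.

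The remaining lists held 1 member in all. Among 14 pluripotency factors the single member (7.14%) was Tfcp2l1, a factor of naive embryonic stem cells, with 7734 bases. The core factors were far below the limit, with 226 bases in Pou5f1, 1086 in Sox2, 1078 in Nanog and 988 in Klf4. None of 28 heat shock factor and chaperone genes was a member, and their median was 656 bases, with 687 in Hsf1, 945 in Hsf2 and 641 in the inducible Hsp70 gene Hspa1a. None of 23 Pol I subunits and factors was a member either (median 644 bases). With 2.46% of all coding symbols being members, a list of 23 or 28 symbols can hold none without standing out. The largest subunit gene Polr1a had 845 bases and the upstream binding factor gene Ubtf 2081. None of the 57 clustered protocadherins, many of which share their last exons, was a member. The list of ribosomal protein names (98 symbols, median 94.5 bases) and the 1103 olfactory receptor genes (median 0 bases) also held none. The longest in the ribosomal list, Rps6ka3 with 4759 bases, is a kinase gene that the name pattern also takes in.

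**Figure D5:**
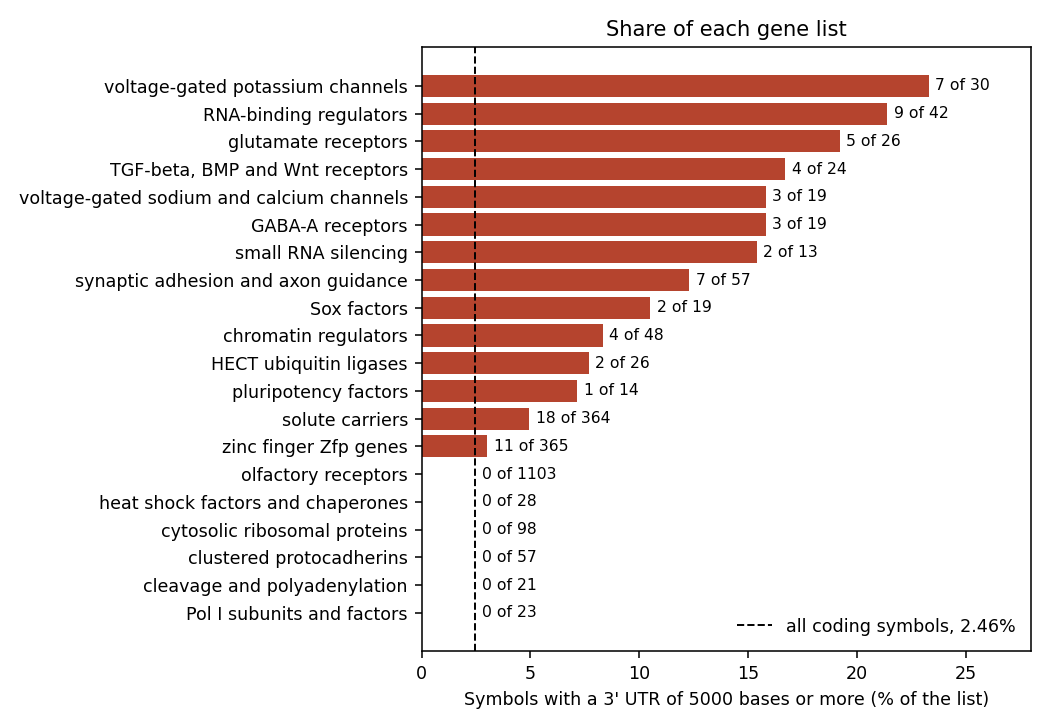
Share of each gene list whose longest 3' UTR had 5000 bases or more, with the number of members and of coding symbols beside each bar. The dashed line is the 2.46% of all coding symbols. Voltage-gated potassium channels (7 of 30) are at the top, and 6 lists hold no member.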

How the data were processed

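Transcript rows (50727, of which 24 lie on an added rDNA contig) were read from a BED12 table. The submitters' processing notes name mm10 as the build, and FastQC, Bowtie2, bedtools and deepTools as software. How the annotation was made is not given in the sources used here. The BED score deposited by the authors was 0 in every row, so it holds no measurement, and the other numeric columns deposited are positions and block numbers.

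Rows with column 7 below column 8 on chromosomes 1 to 19, X and Y were used. The row with the longest 3' UTR stood for a symbol, ties going to the longest coding part. The coding length was that between columns 7 and 8. Printed positions count from 1. Variants are rows of the same symbol, strand and locus, and shared bases are exonic bases held by another symbol (at least 1). The measurement was tested on 2000 simulated transcripts, with 0 wrong. All 517 members matched a RefSeq gene of GRCm38.p6. Promoter sequences matched 405 of 517 members, under 80%, and were not used. Python 3.11.15, pandas 2.3.3, numpy 2.4.6, scipy 1.17.1 and matplotlib 3.10.9 were used.

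The members and lists were chosen with earlier results of these data known. Named are the 15 longest, the 5 nearest the limit on either side, the 5 extremes of blocks, same-stop difference, coding length and share, and up to 4 members a list. Where a list is given in full, or genes are said to be picked, they fall outside this rule. Genes given with the shared bases, spans, single exons and coding rows were also chosen after their values were seen. A few genes that this choice takes in are not reported here.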

Additional observations from a re-analysis of the deposited data

How the results depend on the processing

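No paired analysis was possible because transcript coordinates carry no replicate, and no replicate could be left out. The number of members (517) depends on the limit, becoming 1030 at 4000 bases, 258 at 6000, 77 at 8000 and 28 at 10000. It stayed within 1.5 times under the 7 other settings, at 517 with all contigs or with each 3' end counted once, 516 without rows whose stop lay more than 50 bases before the last junction, 507 with single-block 3' UTRs alone, 465 by the median row, 427 by the shortest row and 767 by genomic distance with introns included. The 494 single-block members became 507 when any row at the limit counted. The 70 members with a short variant became 54 at 25% of the length, 43 for variants under 1000 bases and 10 for the same stop alone. The median coding length of 1770 bases became 1821 with the longest coding part of any row. The 78 members in the 20 lists became 137 at 4000 bases and 8 at 10000. An annotated 3' end is not evidence that the end is used in these cells.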

Other observations

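Chromosome 1 held 69 of the 517 members, which is 5.89% of its 1171 coding symbols, against 2.26% (448 of 19821) on the other assembled chromosomes. The other chromosomes ranged from 0 of 77 symbols on Y and 1.04% on chromosome 14 to 3.58% on chromosome 18. At a limit of 4000 bases the share was 8.97% on chromosome 1 and 4.67% on the others, and at 8000 bases 0.512% and 0.358%. Chromosome 1 was not the highest at larger limits. At 6000 bases its share was 2.65%, below the 2.78% of chromosome 18. At 8000 bases chromosomes 18 (1.19%), 16 (0.936%), 9 (0.59%), 15 (0.526%) and 3 (0.515%) were above it. The median 3' UTR of symbols that have one was 1088 bases on chromosome 1 and 797 on the others, while chromosome 18 had a higher median, 1320 bases. The pattern was noticed in these same genes, and no test was run on it.

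The members' 3' ends were set beside the gene ends of the RefSeq table of GRCm38.p6. In 424 of 517 members (82.0%) the row ended at the same base as the reference gene, against 79.1% of the 19534 symbols with a 3' UTR that could be compared. A reference gene end covers all variants of the gene, while the row is that of the longest 3' UTR. In the other 93 (18.0%, against 20.9% over all) the reference gene went further, by a median of 9 bases against 19 over all. It went further by 1000 bases or more in 32 members (6.19%, against 7.21%). The reference gene ended before the row in 0 members and in 0 of the 19534 symbols. An end that covers all variants cannot fall before a row that the reference also holds. These counts are therefore no independent check of the 3' ends. The reference gene went further by 25683 bases in Adgrl3 and 12170 in Prlr, which were picked after their values were seen. These are examples and not the largest.

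Close relatives differed in length. The following families were chosen after their values were seen. Both roquin genes were members, Rc3h1 with 7179 bases and Rc3h2 with 5331. Of 3 Tet genes Tet2 was outside with 3060 bases, and of 3 Nsd genes Nsd1 was outside with 4597. Among 10 diacylglycerol kinase genes, Dgkh (10854 bases), Dgki (9994) and Dgke (5553) were members, whereas Dgka had 289 bases. Of 9 protein kinase C genes, Prkcb (6588) and Prkca (6129) were members, while Prkcd had 513 bases. Among the 4 nuclear factor I genes Nfia (7641) and Nfib (6621) were members, with Nfic just outside at 4907. Of the Musashi genes Msi2 had 5310 bases and Msi1 1895, and none of 3 Pumilio genes was a member, the longest being Pum2 with 2863.

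Ncl, which encodes the nucleolar protein nucleolin, was a member with 5901 bases in its 1 coding row. None of the 23 Pol I genes was, a list too short to differ clearly from the 2.46% of all coding symbols. Ncl was picked after its value was seen.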
